A study of Mus musculus with 18 samples.

Results

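The major urinary proteins are small secreted lipocalins, and the genes followed here are Mup1, Mup3, Mup7, Mup13, Mup19, Mup20 and Mup21. They were taken as the rows of the deposited gene table whose Ensembl identifier maps to one of these 7 symbols, which are 7 of 23474 rows. The same table holds 14 other rows named Mup with a number, which are used for comparison only. The identifiers are ENSMUSG00000078683 (Mup1), ENSMUSG00000066154 (Mup3), ENSMUSG00000073842 (Mup7), ENSMUSG00000089873 (Mup13), ENSMUSG00000078673 (Mup19), ENSMUSG00000078672 (Mup20) and ENSMUSG00000066153 (Mup21).

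Messenger RNA was sequenced from liver and from the fat pad beside the epididymis (epididymal adipose tissue, eWAT) of male C57BL/6J mice aged 17 weeks, whose strain field reads C56BL/6J. The mice carried no stated mutation or transgene and were housed singly. From 5 weeks of age they spent 12 weeks in 1 of 3 groups of 10 mice: a normal diet (ND), a high-fat diet with mice classed as prone to it (HP), or a high-fat diet with mice classed as resistant (HR). Each tissue has 3 libraries per group, 18 in all. The labels describe a random division. They leave unsaid by what measure a mouse was classed as prone or resistant, which of the 10 mice were sequenced, and whether 2 libraries could stem from 1 mouse. The p-values therefore speak only to the spread among libraries, some of which may be technical. The question put to the data was how prone and resistant mice differ from normal-diet mice, and from each other, in the expression of these genes.

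Major urinary proteins are made by hepatocytes, pass from the blood into the urine, and carry small volatile molecules that act as scent signals between mice. Male mouse liver is known to make much more of them than female liver, because the pulsed pattern of growth hormone in males, acting through the growth hormone receptor, JAK2 and STAT5, drives the genes together with androgen, thyroid hormone and glucocorticoid. The genes form a cluster on chromosome 4 with a central array of almost identical copies and more divergent members at its edges. MUP1 in the circulation has also been linked to glucose and lipid handling in mouse liver.

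How far the rows can be told apart depends on their sequence, since the reads of near-identical copies can be split or shared among rows. In the GENCODE M21 transcripts, Mup1, Mup7, Mup13 and Mup19 were 98.8% to 99.5% identical to each other. Every stretch of 50 bases of the Mup19 transcript (100%) also occurred in another Mup gene, as did 94.8% of such stretches of Mup1, 92.4% of Mup13 and 90.2% of Mup7. Values of these 4 rows are therefore uncertain one by one, and their sum is given as well. Mup3 and Mup21 were 96.1% identical to each other and shared only 15.6% and 19.3% of their 50-base stretches with another Mup gene. Mup20, which encodes the male scent protein darcin, shared 50.1%, mostly with the pseudogene Mup-ps19.

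Promoters are shown because the members moved together to different degrees: Mup7 and Mup19 from the near-identical group, Mup3 and Mup21 from the divergent pair, and Mup10 as a row outside the 7 whose mean did not go down in prone liver. Each is the 150 bases before the gene's start, read 5′ to 3′ on the gene's strand, from RefSeq on GRCm38.p6, where all 5 lie on the minus strand of chromosome 4. RefSeq promoters were matched for 4 of the 7 members. Capitals mark TATATAA, a core promoter motif that was searched on the gene's strand.
Mup7 (chr4:60070476-60070625): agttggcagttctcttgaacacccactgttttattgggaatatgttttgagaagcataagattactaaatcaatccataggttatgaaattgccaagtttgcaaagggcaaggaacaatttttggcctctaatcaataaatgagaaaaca
Mup19 (chr4:61782225-61782374): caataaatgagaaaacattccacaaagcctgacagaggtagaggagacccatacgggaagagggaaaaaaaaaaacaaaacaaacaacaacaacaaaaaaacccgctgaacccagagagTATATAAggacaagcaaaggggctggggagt
Mup3 (chr4:62087318-62087467): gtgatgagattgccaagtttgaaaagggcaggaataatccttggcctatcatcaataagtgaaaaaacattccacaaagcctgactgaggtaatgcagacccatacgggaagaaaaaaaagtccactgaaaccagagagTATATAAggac
Mup21 (chr4:62150842-62150991): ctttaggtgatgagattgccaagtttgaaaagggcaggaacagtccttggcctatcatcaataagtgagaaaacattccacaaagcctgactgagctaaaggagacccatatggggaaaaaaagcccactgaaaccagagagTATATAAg
Mup10 (chr4:60582156-60582305): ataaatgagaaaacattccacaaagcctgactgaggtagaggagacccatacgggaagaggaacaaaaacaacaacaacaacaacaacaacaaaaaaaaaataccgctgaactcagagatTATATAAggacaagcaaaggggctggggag
Motifs were searched in the 250 bases before the start, a window that includes the printed stretch, in the Mup genes as in all promoters. TATATAA was found in 11 of the 14 Mup promoters, Mup10, Mup19, Mup3 and Mup21 included. The windows of Mup7, Mup11 and Mup14 did not hold it. By their sequence, these windows end upstream of or within the place where Mup19 has the motif. The search therefore cannot say whether Mup7, Mup11 and Mup14 lack it. Among all 32851 RefSeq promoters 2.055% held it. The STAT5-type palindrome TTCNNNGAA, searched on both strands, was in 0 of the 14 Mup promoters and in 7.02% of all promoters. Identity was taken over the stretch that aligned in the 250 bases before the start, and these stretches differed in length. Mup7 and Mup19 were 96.6% identical over only 117 bases, and Mup19 and Mup10 95.5% over 246. Mup3 and Mup21 were 93.4% identical over 244 bases, and Mup19 and Mup3 87.3% over 197.

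In the 9 liver libraries, hepatocyte markers summed to 56033 to 96038 FPKM (fragments scaled by transcript length and by the mapped fragments of the library), against 1.58 to 13.3 in eWAT, so the liver libraries matched their label by this list of 9 genes. Adipocyte markers (6 genes) summed to 17902 to 33975 FPKM in 7 eWAT libraries, but to 3741 in eWAT ND 1 and 5309 in eWAT HR 2, where spermatid markers (4 genes) came to 92413 and 11231. Epididymis markers (6 genes) came to 17071 FPKM in eWAT ND 1 and 1275 in eWAT HP 2, and to at most 11.6 in the other 7 eWAT libraries. The liver libraries resembled each other, with correlations across genes of 0.970 to 0.994, and their depths relative to ND 2 were 0.880 to 1.10. In liver HP 3, 2 highly expressed genes, Alb and mt-Co1, were listed at 0, while the other 8 liver libraries held 21466 to 28319 FPKM of Alb and 29610 to 53659 of mt-Co1. A list of 5 skeletal muscle markers added up to 98.9 FPKM in HP 2 and 19.9 in HP 3, against at most 0.955 in the other 7 liver libraries, HP 1 among them. Adipocyte markers added up to 127 to 175 FPKM in HP, 47.2 to 73.8 in ND and 50.1 to 60.7 in HR liver. The higher HP sum came mostly from Cidec (mean 88.0 against 38.0 in ND), Fabp4 (34.2 against 8.72) and Pparg (15.2 against 6.01). Adipoq was at 1.40, 0 and 0.174 FPKM in HP 1 to 3 and Plin1 at 0.399, 0 and 0, so the list did not move as 1. Macrophage markers added up to 67.6 to 101 FPKM in HP, 61.8 to 78.5 in ND and 45.3 to 109 in HR liver. In liver epididymis markers reached at most 0.334 FPKM, and spermatid markers were at 0 in all 9 libraries. The part of these other cell types in the results was not tested.

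Liver on the normal diet held a large amount of these transcripts. The 7 members summed to 15162 ± 1210 FPKM (SD, n = 3), which was 2.07% ± 0.221 of all FPKM of a library, and all 21 Mup rows together made up 3.70% ± 0.312. On this per-length scale the order of mean levels was Mup3, Mup7, Mup20, Mup19, Mup1, Mup21 and Mup13. Mup3 was the member with the highest level at 6673 ± 609 FPKM, rank 18 among all rows of the table. Mup7 at 3969 ± 698 and Mup20 at 2900 ± 523 FPKM, ranks 25 and 31, were closer, though Mup7 was the higher in each of the 3 libraries and its lowest library (3544) was just above the highest of Mup20 (3501). Mup19 followed at 934 ± 344, with its lowest library still above the highest of Mup1. Mup1 at 385 ± 99.0 and Mup21 at 298 ± 50.9 FPKM overlapped. Mup13 was far below the others, at 4.21 ± 0.990 FPKM and rank 7299.

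**Figure D1:**
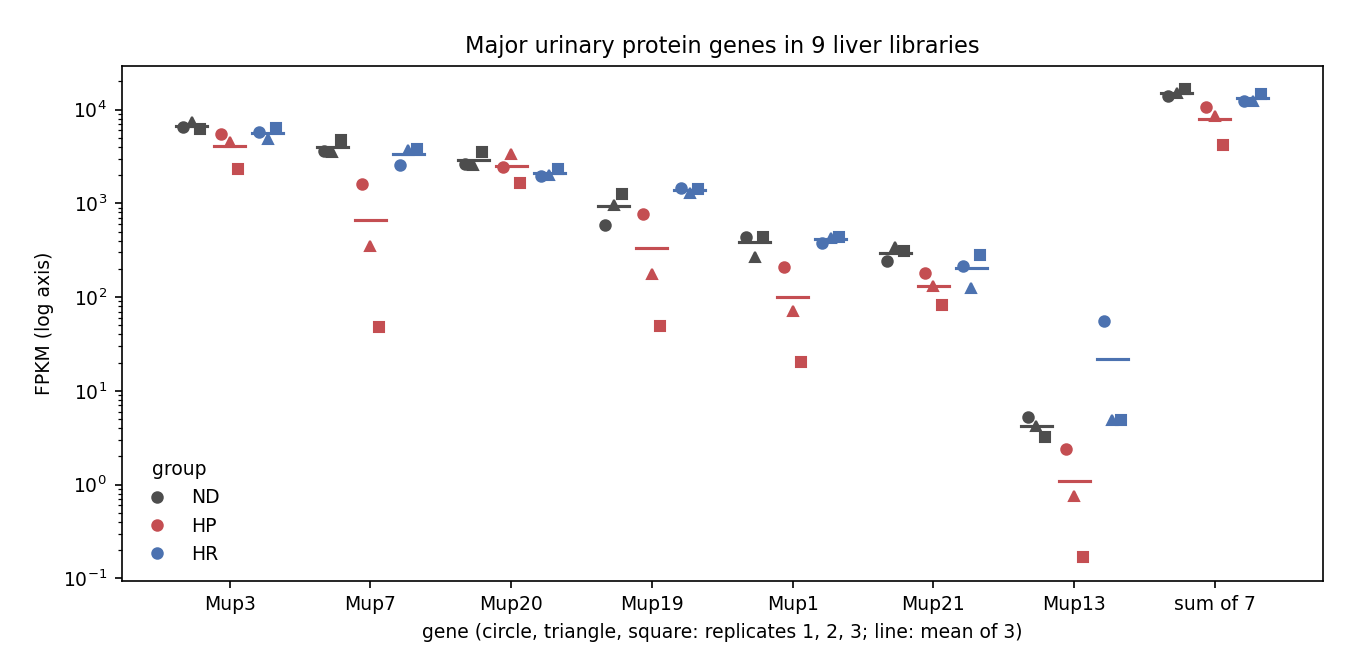
FPKM (log axis) of each major urinary protein gene and of their sum in the 9 liver libraries, with ND, HP and HR in colour, symbols for replicates 1, 2 and 3, and a line at each mean of 3. In every member HP 3 is the lowest point, from 0.167 FPKM for Mup13 to 2349.6 for Mup3, and the 3 HP points of Mup7, Mup19, Mup1 and Mup13 spread much more widely than those of Mup20.

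The first comparison asks how prone liver differs from normal-diet liver. In prone liver 4 of the 7 members fell (Mup7, Mup1, Mup19 and Mup21), none rose, and 3 did not pass the test (Mup13, Mup3 and Mup20). Of all 10633 genes tested in liver, 31.7% passed in this comparison, 17.6% as higher and 14.1% as lower. The median log2 difference was -1.43 over the 7 members and -0.02 over all genes tested. The test was limma on log2(FPKM + 1) with Benjamini-Hochberg adjustment over all genes, two-sided, at an adjusted p of 0.05. In this bulk RNA, fewer hepatocytes and less RNA per hepatocyte cannot be told apart.

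Mup7 showed the widest gap. Its levels were 3588, 3544 and 4775 FPKM in ND 1 to 3, then 1613, 347 and 48.4 in HP 1 to 3, and 2599, 3703 and 3839 in HR 1 to 3. The 3 prone libraries lay below all 6 others, and among themselves they ran from 40.6% of the ND mean in HP 1 through 8.74% in HP 2 to 1.22% in HP 3. The difference from ND was -3.70 on the log2 scale (SE 0.89, 95% interval -5.67 to -1.73, adjusted p = 0.0114).

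Mup1 encodes the family member best studied as a circulating protein. It measured 440.1, 270.3 and 443 FPKM in ND, 210.0, 71.9 and 20.3 in HP, and 377, 425 and 436 in HR. Again no prone library reached any of the others, and HP 3 stood at 5.29% of the ND mean. The log2 difference between HP and ND was -2.45 (SE 0.60, adjusted p = 0.0122).

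Mup19 measured 581, 954 and 1268 FPKM in ND, 774, 178 and 49.3 in HP, and 1472, 1296 and 1411 in HR. Here the groups overlapped, since HP 1 was above ND 1, while HP 2 and HP 3 were below every other library. The log2 difference of -2.22 (SE 0.72) had an adjusted p of 0.0383, and this call did not survive leaving out ND 1, ND 2, ND 3, HP 2, HP 3 or HR 3 in turn, with adjusted p-values of 0.0509 to 0.119, nor testing with no filter on low values (0.0991) or HP and ND alone (0.0609).

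Mup13, the scarcest member, was at 5.21, 4.19 and 3.22 FPKM in ND, 2.38, 0.754 and 0.167 in HP, and 56.3, 4.87 and 4.92 in HR. The prone libraries were the lowest here too, and HR 1 stood far above all other libraries. Its log2 difference from ND was -1.43 (SE 0.73, adjusted p = 0.150). Without HR 1 in the fit, which shares 1 estimate of the spread over the 3 groups, the adjusted p for HP against ND was 0.0095.

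Summed over Mup1, Mup7, Mup13 and Mup19, whose reads are hardest to assign, the levels were 4614, 4773 and 6489 FPKM in ND and 2599, 597 and 118 in HP. The sum thus shows the same order of libraries as its parts, with HP 1 at 49.1%, HP 2 at 11.3% and HP 3 at 2.23% of the ND mean. In HR the sum was 5208 ± 623 FPKM, beside 5292 ± 1040 in ND.

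Mup21 and Mup3 form the divergent pair. Mup21 measured 242, 341 and 311 FPKM in ND, 182, 129.9 and 82.3 in HP, and 216, 124 and 279 in HR. Prone libraries lay below all ND libraries, and the difference was -1.23 (SE 0.31, adjusted p = 0.0143). Mup3 measured 6541, 7337 and 6141 FPKM in ND, 5556, 4486 and 2349.6 in HP, and 5709, 4829.6 and 6447 in HR. Its prone and normal-diet groups did not overlap either, but the difference of -0.78 (SE 0.28, 95% interval -1.38 to -0.17) had an adjusted p of 0.0519. Rescaling the libraries to the same sum of FPKM brought Mup3 past the threshold, at -0.99 with an adjusted p of 0.0147, as did leaving out HP 1 (0.0165).

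Mup20 stood apart from the rest in its values. It measured 2639, 2558 and 3501 FPKM in ND, 2441, 3359.8 and 1654 in HP, and 1950.4, 2016 and 2339.9 in HR. HP 2, in which Mup7 was at 8.74% of its ND mean, held Mup20 at 115.9% of the ND mean. The log2 difference between HP and ND was -0.27 (SE 0.24, adjusted p = 0.411), with a 95% interval of -0.79 to 0.26. Over the 7 members, HP and ND libraries did not overlap for 5 of 7, where 44.9% of all genes tested showed no overlap.

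**Figure D2:**
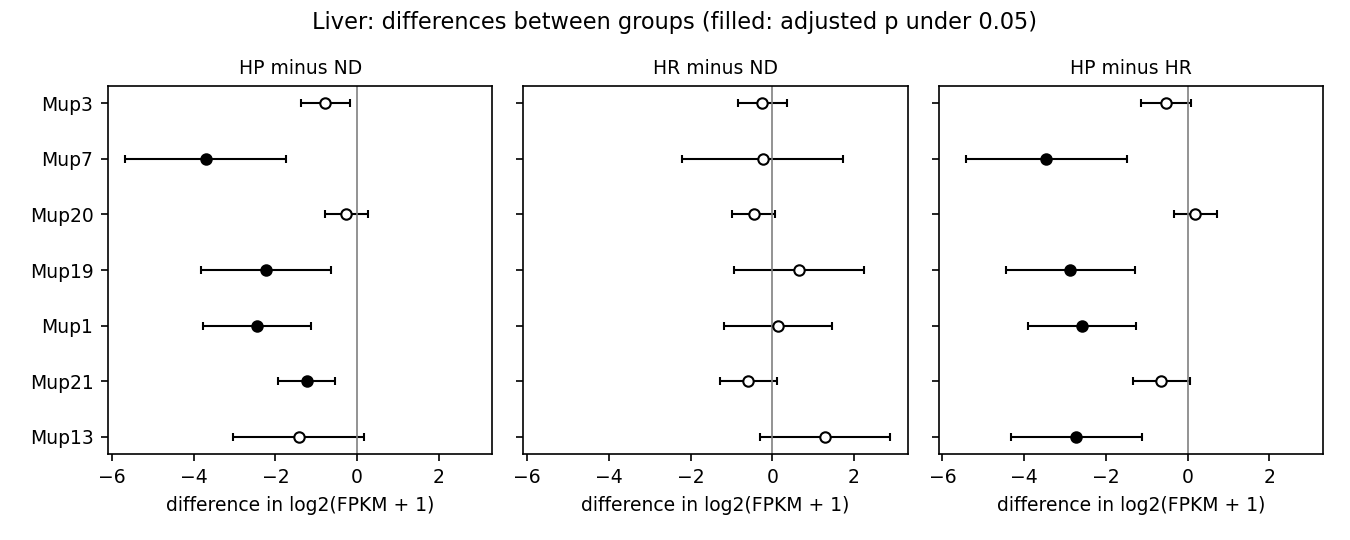
Differences in log2(FPKM + 1) between liver groups for each member, with 95% intervals from limma (3 libraries per group), filled where the adjusted p is under 0.05. Mup7, Mup19 and Mup1 are filled in both comparisons of HP, Mup21 only against ND and Mup13 only against HR, and the middle panel for HR minus ND holds no filled point.

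The summed FPKM of the 7 members was 14036, 15009 and 16442 in ND, 10778, 8573 and 4204 in HP, and 12379.8, 12398 and 14756 in HR. All prone libraries were below all others. The prone mean of 7852 ± 3346 FPKM was 0.518 of the ND mean, a log2 ratio of -0.95, and no p is given for a score over chosen genes. Members took 0.917% ± 0.399 of all FPKM in prone liver, against 2.07% ± 0.221 in ND and 1.77% ± 0.222 in HR.

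Prone libraries were ordered in the same way across most of the family. HP 3 was the lowest of the 3 prone libraries in 7 of 7 members and HP 1 the highest in 6 of 7, Mup20 being the exception. Among the 19 Mup rows whose ND liver mean reached 1 FPKM, 18 were lowest in HP 3, 17 were highest in HP 1, and 18 had HP 3 below all 8 other liver libraries. Many of these rows share reads, so they do not repeat the observation independently. HP 2 and HP 3 were also the libraries with skeletal muscle transcripts, at 98.9 and 19.9 FPKM, and HP 2 had more of them than HP 3 as well as higher levels of all 7 members. Without HP 3 alone the differences from ND were -2.39 for Mup7, -1.60 for Mup1, -1.26 for Mup19 and -0.94 for Mup21. With both left out, which keeps 1 prone library and assumes it to vary like the other groups, 1 of 7 members passed. That was Mup7, at -1.28 with an adjusted p of 0.0413, and Mup1 was at -0.83 (adjusted p = 0.110), Mup21 at -0.69 (adjusted p = 0.283) and Mup19 at -0.20 (adjusted p = 0.751).

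**Figure D3:**
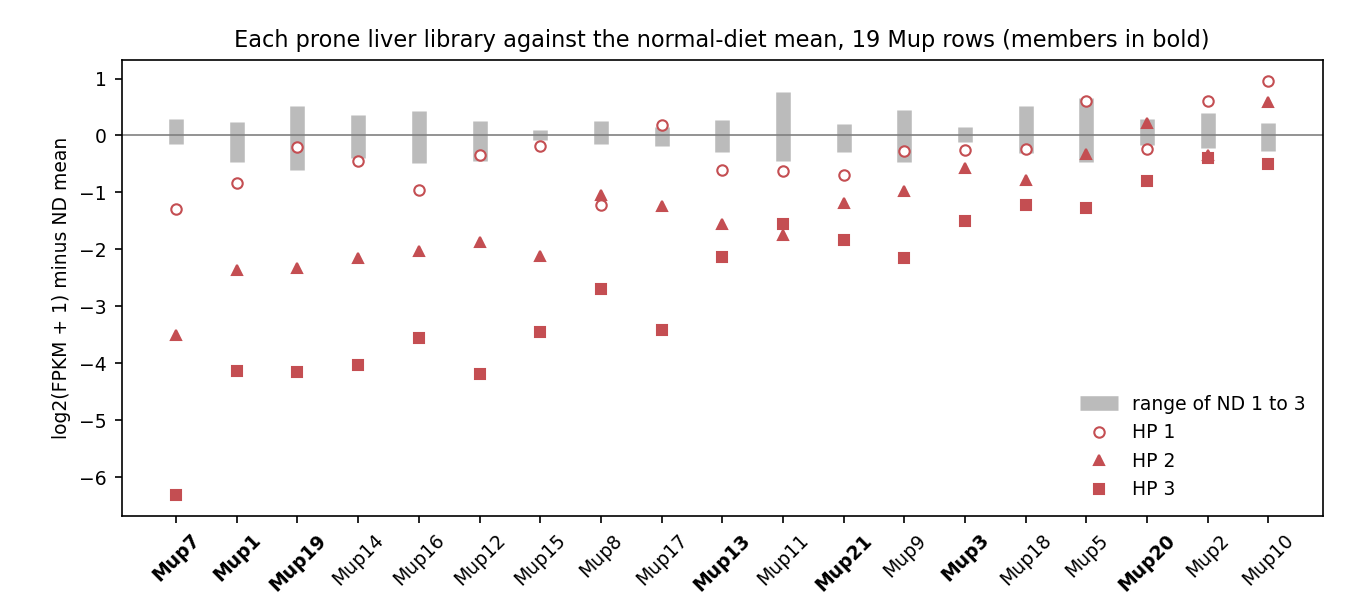
Each prone liver library as its log2(FPKM + 1) minus the mean of the 3 ND libraries, for the 19 Mup rows whose ND mean reached 1 FPKM (members in bold). Grey bars give the range of ND 1 to 3. HP 3 (squares) is lowest for 18 of the 19 rows, while Mup20, Mup2 and Mup10 at the right stay within about 1 unit of the ND mean in all 3 libraries.

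Since FPKM is relative to each library's own total, the composition of the summed signal was also described, which does not depend on that scaling. Mup7 made up 25.6%, 23.6% and 29.0% of the summed FPKM in ND and 15.0%, 4.05% and 1.15% in HP 1 to 3. Mup20 went the other way as a share, from 18.8%, 17.0% and 21.3% in ND to 22.6%, 39.2% and 39.3% in HP. The share of Mup3 was 44.3% ± 6.11 in ND, 53.3% ± 2.31 in HP and 42.9% ± 3.64 in HR. With 52.3% in HP 2 and 55.9% in HP 3, Mup3 and Mup20 together made up nearly all of the signal in libraries where the sum itself was 56.5% and 27.7% of the ND mean. In HR liver Mup7 held 25.6% ± 4.45 of the sum, and Mup20 15.8%, 16.3% and 15.9% in HR 1 to 3.

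**Figure D4:**
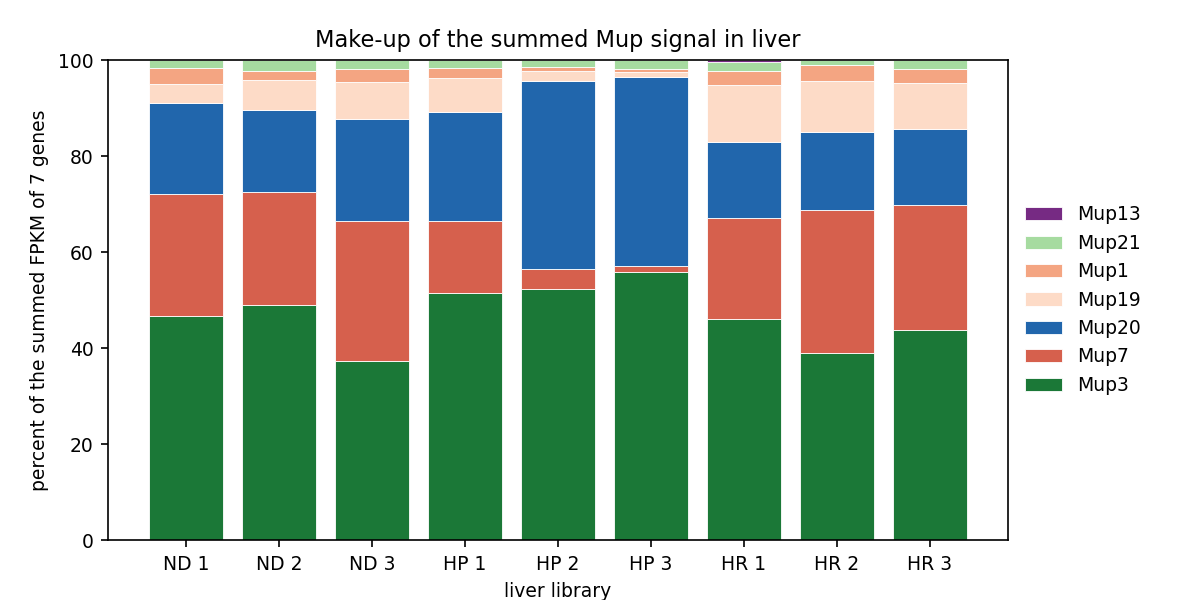
Percent of the summed FPKM of the 7 genes taken by each gene in the 9 liver libraries (bars from 0 to 100). Mup7 (red) shrinks from 15.0% in HP 1 to 4.05% in HP 2 and 1.15% in HP 3, while Mup20 (blue) holds 39.2% and 39.3% in HP 2 and HP 3.

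The next comparison asks whether resistant liver differs from normal-diet liver on the same scale. No member passed the test: 0 of 7 by limma, also 0 of 7 at an unadjusted p under 0.05, where 3.24% of all genes tested passed after adjustment. The median difference was -0.24 over the members and 0.01 over all genes. A missed threshold does not show equality. Mup7 differed by -0.24 with a 95% interval of -2.21 to 1.73, and Mup1 by 0.13 with an interval of -1.19 to 1.46. These intervals are wide because the fit shares 1 estimate of the spread with the prone libraries, where both genes varied most. Fitted on HR and ND alone, the SE went from 0.89 to 0.19 for Mup7 and from 0.60 to 0.19 for Mup1. For Mup19 it went from 0.72 to 0.25 (limma, adjusted p = 0.181), and 0 of 7 members passed after adjustment. HR and ND did not overlap for 2 of 7 members, against 25.8% of all genes tested. These were Mup19, higher in HR by 0.65 (SE 0.72, adjusted p = 0.664), and Mup20, lower in HR by a difference of -0.45 (SE 0.24, 95% interval -0.98 to 0.07, adjusted p = 0.318). Mup21 was at -0.59 (SE 0.31) and Mup3 at -0.24 (SE 0.28). For Mup13 the mean of 22.0 ± 29.7 FPKM in HR rested on HR 1, and its difference of 1.29 was 0.20 without that library.

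Prone and resistant mice ate the same kind of diet, and the third comparison sets them against each other. In prone liver 4 of 7 members were lower than in resistant liver and none was higher, where 11.1% of all genes tested passed, 7.2% as higher and 3.94% as lower. Mup7 was lower by a log2 difference of -3.46 (SE 0.89, adjusted p = 0.0338), Mup19 by -2.87 (SE 0.72, adjusted p = 0.0310), Mup13 by -2.72 (SE 0.73, adjusted p = 0.0369) and Mup1 by -2.58 (SE 0.60, adjusted p = 0.0236). These 4 are the near-identical rows, and all 4 had groups that did not overlap, as 34% of all genes tested did. Mup21 at -0.64 (adjusted p = 0.189), Mup3 at -0.53 (adjusted p = 0.213) and Mup20 at 0.19 (95% interval -0.34 to 0.71, adjusted p = 0.623) did not pass. The median was -2.58 over the members and -0.03 over all genes.

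The calls of HP against HR, which share the prone libraries with HP against ND, depended on single libraries. Without HP 2, or without HR 2, 0 of 7 members passed, without HR 3 only Mup13 did, without HP 3 only Mup7 (-2.15) and Mup1 (-1.73) did, and without HR 1 Mup19 did not (adjusted p = 0.0551). Mup13 was at -1.63 without HR 1. With no filter on low values 0 of 7 passed, the adjusted p-values of those 4 being 0.0730 to 0.102. The sum of the 7 members was 0.596 of the HR mean in prone liver, a log2 ratio of -0.75, and over all 21 Mup rows that log2 ratio was -0.79. The sign of the 0.19 for Mup20 turned with the setting, to -0.0051 when rescaled to the same sum and to -0.06 without HP 2.

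Scaling moves all such differences a little. When libraries were rescaled to the same sum of FPKM, the median over all genes shifted from -0.02 to -0.20 for HP against ND and from -0.03 to -0.19 for HP against HR. Lower calls then rose from 44.5% to 68.9% of all calls of HP against ND, and from 35.4% to 65.1% of those of HP against HR. For HR against ND they went from 29.9% to 40.3% under quantile normalization and to 43.5% when rescaled without mitochondrial rows. Relative to these shifts the members stayed low: their median for HP against ND was -1.56 when rescaled to the same sum, with 5 of 7 called lower.

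Among the 14 other Mup rows, 12 passed the filter of at least 1 FPKM in at least 3 of 9 liver libraries. Of these 12, 7 fell in prone liver against ND (Mup8, Mup9, Mup11, Mup12, Mup14, Mup15 and Mup16), none rose, and Mup2, Mup5, Mup10, Mup17 and Mup18 did not pass. Among all genes tested, 14.1% fell. Mup14, for example, measured 1684, 1234 and 2088 FPKM in ND and 1199, 365 and 98.5 in HP, a difference of -2.21 (SE 0.65, adjusted p = 0.0260). Mup9, whose ND level of 6581 ± 2017 FPKM overlapped that of Mup3, differed by -1.13 (SE 0.39, adjusted p = 0.0488). Mup10 measured 2114, 2942 and 2630.2 FPKM in ND and 4944, 3813 and 1799 in HP, and its difference of 0.35 (95% interval -0.34 to 1.04) had an adjusted p of 0.417. Against HR, 4 of the 12 were lower in prone liver (Mup8, Mup11, Mup14 and Mup16), where 3.94% of all genes tested were. Between HR and ND 0 of the 12 passed in limma, with 1, Mup2, at an unadjusted p under 0.05. The sum of all 21 rows was 27115 ± 740 FPKM in ND, 15753 ± 7699 in HP and 27204 ± 1040 in HR.

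Across the 9 liver libraries the correlation of log2(FPKM + 1) was 0.989 between Mup7 and Mup1, 0.960 between Mup7 and Mup19, 0.921 between Mup7 and Mup3 and 0.912 between Mup3 and Mup21. Mup13, though nearly identical in sequence to Mup7 and Mup1, was at 0.614 and 0.671 with them. Its level was 56.3 FPKM in HR 1 and 0.167 to 5.21 in the other liver libraries. For Mup20 the correlation with the other 6 members ran from -0.186 to 0.514. These are descriptions over 9 libraries in which HP 2 and HP 3 lie far from the rest, and near-identical rows share reads. With group means removed, Mup7 and Mup1 were at 0.977 and Mup7 and Mup13 at 0.240. Mup20 was then at 0.480 to 0.605 with Mup1, Mup3, Mup7, Mup19 and Mup21, and at -0.047 with Mup13.

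Regulators of the family were described from a list of 25 genes of the growth hormone, glucocorticoid, thyroid and androgen pathways and liver transcription factors, 23 of which were tested. In prone liver against ND 3 were higher, 5 were lower and 15 did not pass, with a median of -0.19, so the share called was near the 31.7% of all genes tested and is no result about the list. The lower genes were Lepr, the leptin receptor (-2.75, adjusted p = 6.49e-05), Socs2, a STAT5-induced inhibitor of growth hormone signalling (-2.03, adjusted p = 0.00533), the insulin receptor Insr (-0.49), the hepatocyte factor Hnf4a (-0.44) and Zhx2 (-0.43), a homeobox factor known to act on Mup genes. Higher were the C/EBP factors Cebpb (1.73, adjusted p = 7.91e-05) and Cebpa (0.55) and the signal transducer Stat5a (0.52), but rescaled to the same sum only 1 of the 23 was called higher and 9 were lower.

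The growth hormone receptor itself, Ghr, differed by 0.01 (adjusted p = 0.965), Stat5b by -0.15 (adjusted p = 0.397) and Igf1, its hormone product, by 0.38 (adjusted p = 0.106). Socs2 measured 41.6, 17.0 and 10.5 FPKM in ND, 2.97, 5.11 and 4.38 in HP, and 7.55, 3.58 and 8.05 in HR. Both high-fat groups lay below all ND libraries, and the values did not follow the order of the Mup levels in HP 1 to 3. Cebpb measured 7.66, 8.15 and 7.80 FPKM in ND, 24.4, 25.5 and 36.6 in HP, and 12.1, 10.9 and 12.6 in HR. Between HR and ND 1 of 23 regulators passed, Lepr at -2.83 (adjusted p = 0.000151), where 3.24% of all genes tested did. Between HP and HR 1 was higher (Cebpb, 1.19) and 2 were lower (Hnf4a, -0.55, and Igfals, -0.50), where 11.1% of all genes tested passed.

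Male-biased liver genes, which share the growth hormone input of the family, were given by a list of 18, with 16 tested. In prone liver against ND 11 of 16 fell and none rose, with a median of -1.52, where 14.1% of all genes tested fell. The list was chosen with earlier results of these data known, so the count is only a description. The steroid dehydrogenase Hsd3b5 measured 54.5, 49.1 and 80.0 FPKM in ND, 2.58, 0.185 and 0.124 in HP, and 82.0, 54.6 and 56.1 in HR. Its difference of -5.17 (SE 0.38, adjusted p = 5.66e-05) was wider than that of any member. The organic anion transporter Slco1a1 differed by -3.76 and the protease inhibitor Serpina1e by -3.79. Between HR and ND 0 of 16 passed in limma, where 3.24% of all genes tested did, with 5 of the 16 at an unadjusted p under 0.05. In HP against HR 9 of 16 were lower, where 3.94% of all genes tested were.

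Female-biased genes were mostly under the filter, with 5 of 15 tested. In HP against ND 2 rose, Cyp2b9 (5.01) and Cyp2a4 (3.40), both cytochrome P450 genes, and 1, the acyl-CoA thioesterase Acot3, fell (-0.90). Cyp2a4 was at 0.0820, 0.368 and 0 FPKM in ND, 2.48, 16.4 and 27.5 in HP, and 1.19, 1.05 and 0.761 in HR. It passed the filter only with the HP libraries, where it was high, so the count of 2 is partly set by the filter. Among all genes tested, 17.6% rose and 14.1% fell. The median of 0.18 over the 5 genes turned to -0.03 when rescaled to the same sum. Cyp2b9 was the one list gene to rise also in HR against ND (2.29, adjusted p = 0.0151).

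Other secreted carriers did not share 1 direction. Of 13 lipocalins and related carriers 9 were tested, and in HP against ND 4 rose, 1 fell and 4 did not pass, with a median of 0.54. Among all genes tested, 17.6% rose and 14.1% fell. Lcn2, an iron-siderophore carrier of the same lipocalin fold, rose by 3.33, the acute-phase carriers Orm2 and Orm3 by 2.38 and 2.22, and the thyroid hormone carrier Ttr by 1.05. The lipoprotein-bound lipocalin Apom fell by 1.71 (adjusted p = 0.000185) and was the carrier that also fell in HR against ND, by 0.79, though no carrier was called there when libraries were rescaled to the same sum. Of 17 abundant secreted liver proteins 4 rose and 2 fell in HP against ND, a share near the 31.7% of all genes tested, with a median of 0.21 that was -0.01 when rescaled to the same sum. The fallers were Serpina3k (-1.76), a protease inhibitor, and the fibrinogen chain Fgg (-0.46), and the difference of Alb (-4.79, adjusted p = 0.230) rested on the value of 0 listed in HP 3.

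Genes with the pattern most like the summed members were sought among the 6535 liver genes whose mean reached 5 FPKM, as the Pearson correlation of log2(FPKM + 1) over 9 libraries. The 5 highest were Cyp2c54 (0.951), Slco1a1 (0.945), Cyp4a12b (0.936), Ces2a (0.922) and C1ra (0.921). Cyp2c54 measured 166, 196 and 174 FPKM in ND, 130, 72.3 and 29.8 in HP and 202, 211 and 192 in HR, the same order of prone libraries as the sum. The 3 lowest were Sptbn1 (-0.952), Sat1 (-0.938) and Cyp2a4 (-0.935). After group means were removed, the 5 highest were Tufm (0.966), Cyp2d9 (0.965), Psma6 (0.946), Ttc39c (0.946) and mt-Co1 (0.939), the last through the 0 listed in HP 3.

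In eWAT the family was close to absent from the table. Together the 7 members gave 0, 0.850 and 0.344 FPKM in ND, 1.73, 1.82 and 1.82 in HP, and 0.178, 0 and 0.185 in HR. The prone libraries were above the other 6, at levels where a gene is close to the lowest values the table resolves. Mup13 was listed at 0 in all 9 eWAT libraries, Mup21 in 8 and Mup1 in 7. None of the 7 members passed the filter of at least 1 FPKM in 3 of 9 eWAT libraries, so no member was tested there or in the test of the difference between tissues.

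Mup10 was the one Mup row tested in eWAT. It measured 0.449, 0.402 and 0 FPKM in ND, 1.60, 1.83 and 2.28 in HP, and 0.285, 0 and 0.306 in HR. It thus passed the filter only through HP, the group where it was high, so tests of that group cannot judge the difference. The difference of HP from ND was 1.19 (SE 0.29, adjusted p = 0.0930), where 2.11% of 14430 genes passed. The response of Mup10 to HP against ND did not pass as a difference between tissues (-0.84, SE 0.45, adjusted p = 0.289), where 3.75% of genes tested did. The same limit holds for that test. Hepatocyte markers in eWAT added up to 8.78 to 12.0 FPKM in HP, 8.85 to 13.3 in ND and 1.58 to 4.95 in HR. These sums were alike in range for HP and ND and lower in HR, but the genes of the list did not move together. Ahsg was at 0.767 FPKM or more in each HP library and at most 0.398 in ND and HR. Apoa2 was at 3.42 to 4.94 in HP and at 5.61, 0.598 and 0.756 in ND 1 to 3. Alb, Cyp2f2 and Serpina3k were instead highest in ND 2 and ND 3. The part of hepatocyte transcripts in the Mup values of eWAT was not tested. The 2 eWAT libraries listed at 0 for all 7 members, ND 1 and HR 2, were also those with the most spermatid transcripts. In ND 1 the sum of all Mup rows was 7.61, of which Mup6, a row outside the 7, gave 6.83.

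**Figure D5:**
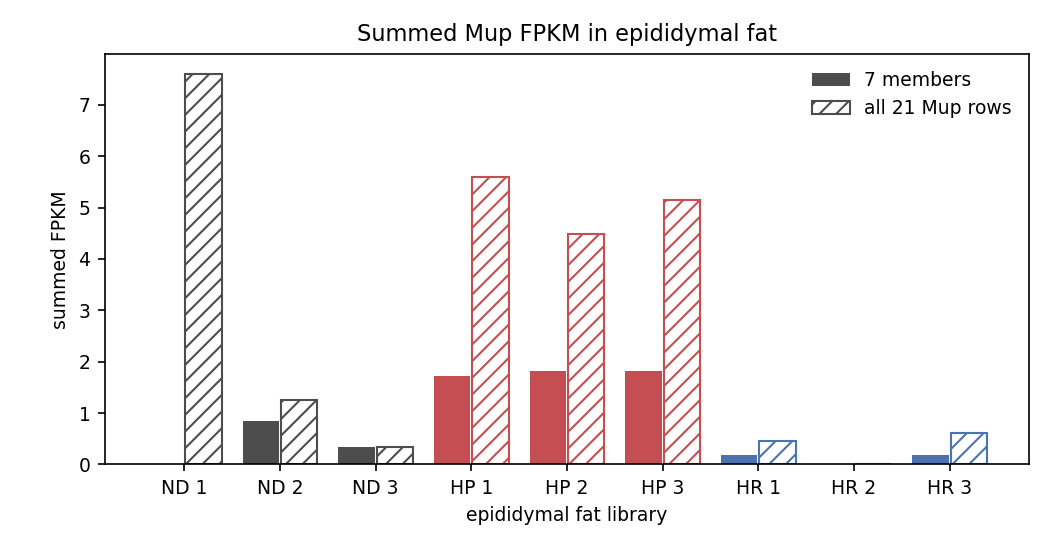
Summed FPKM in the 9 eWAT libraries of the 7 members (filled bars) and of all 21 Mup rows (hatched bars). The members reach 1.73 to 1.82 in the 3 HP libraries and at most 0.850 elsewhere, and the tall hatched bar of ND 1 is almost wholly Mup6.

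On the normal diet the summed members were thus at 14036 to 16442 FPKM in liver and at most 0.850 in eWAT. The members passed the filter on low values only through liver, so no test of this tissue difference is given. Mup1, Mup7, Mup13, Mup19 and Mup20 were listed at 0 in all 3 eWAT ND libraries, so no fold is given for them.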

How the data were processed

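The values are FPKM as deposited by the authors: fragments divided by transcript length and by the mapped fragments of their library, in 1 table of 18 columns. The submitters' processing notes name CASAVA 1.8.2, STAR 2.4.0 and Cufflinks 2.1.1. The role of each tool, the build, the annotation, strandedness and the handling of fragments that match several genes were not given in the sources used here. FPKM keeps no read counts, so absolute depth is unknown and no counting interval is given.

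GENCODE M21 named 22671 of the 23474 identifiers. Testing was done with limma 3.58.1 (R 4.3.3, with a variance trend) on log2(FPKM + 1), which understates changes of low genes. A gene entered a tissue's fit when 3 or more of its 9 libraries reached 1 FPKM. Each tissue had 1 fit of 3 groups, and tissue contrasts 1 fit of 18 libraries. Tests were two-sided, with p-values adjusted by Benjamini-Hochberg over all genes tested and a threshold of 0.05. The text could name the 7 members, other rows named Mup with a number, genes of 5 lists and of cell type markers, and the genes most and least like the sum. The members and lists were chosen with earlier results of these data known.

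Alternatives were a pseudocount of 0.1, no filter, quantile normalization, rescaling to the same sum with or without Mup rows, only the 2 groups compared, dropping the variance trend, a replicate block, leaving out 1 library at a time and, in eWAT, leaving out ND 1 and HR 2 together. Rescaling without mitochondrial rows and leaving out liver HP 2 and HP 3 were added after seeing the data. On simulated data for liver HP against ND with 10633 genes, the fit called 85% of genes changed by 1 and 97% of those changed by 2 on the log2 scale, with 9 false calls. Each gene was drawn independently, as normal values with 1 SD for all 3 groups. The members differ from this setting: Mup7 was at 669 ± 831 FPKM in HP and 3969 ± 698 in ND, and near-identical rows share reads. These percentages are therefore not the power for the members. Sequences were aligned with Biopython 1.88, and figures were drawn with matplotlib 3.10.9.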

Additional observations from a re-analysis of the deposited data

How the results depend on the processing

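Depth is not recorded in FPKM, so precision rests on 3 libraries per group. For HP against ND in liver, 4 members were called, 1 without HP 2 and HP 3, and 3 to 5 with 1 library left out. All genes called numbered 3372, 360 without those 2 libraries and 1716 to 3543 with 1 left out. Mup7 was called under all 19 alternatives (adjusted p 0.000734 to 0.0413), Mup1 and Mup21 under 18 and Mup19 under 10, while Mup3 gained a call under 6 and Mup13 under 3. For HP against HR, 4 members were called, 0 with no filter, 2 with the 2 groups alone, 0 without HP 2 and HP 3 and 0 to 4 with 1 library left out. All genes called were 1185, 580 with no filter, 8 without HP 2 and HP 3 and 229 to 1424 with 1 left out. Mup20 in this comparison turned from 0.19 to -0.0051 rescaled to the same sum and -0.032 rescaled without Mup rows, and it ran from -0.061 (without HP 2) to 0.45 (without HP 3) with 1 library left out. For HR against ND, 0 members were called under every alternative run. All genes called were 345, 200 with no filter, 223 rescaled to the same sum, 220 without Mup rows, 191 without mitochondrial rows and 91 to 349 with 1 library left out. Mup1, at 0.13, ran from -0.10 (without ND 2) to 0.25 with 1 library left out, and the log2 ratio of the sum turned from -0.20 to 0.0047 over all Mup rows.

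In eWAT, genes called for HP against ND were 304, 162 with a pseudocount of 0.1, 16 with quantile normalization, 156 without mitochondrial rows, 3013 without ND 1 and HR 2 and 0 to 593 with 1 library left out. For HR against ND they were 0, 1 under each of the 3 rescalings, 540 without ND 1 and HR 2 and 0 to 27 with 1 left out. For HP against HR they were 0, and 843 without ND 1 and HR 2. No member was called in eWAT under any of these. The cause was not tested.

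Within a tissue, libraries with the same replicate number did not deviate together as a rule. Their correlations were -0.348 to 0.428 in liver (over 0.1 in 2 of 9 pairs) and -0.843 to 0.625 in eWAT (in 4 of 9). Among pairs with unlike numbers, 8 of 18 in liver and 10 of 18 in eWAT were over 0.1. Whether liver and eWAT libraries of the same number come from 1 mouse was not checked, and the fit of 18 libraries treats them as independent. With the replicate block, 184 genes were called in liver HR against ND and 0 in eWAT HP against ND, and Mup13 passed in liver HP against ND (adjusted p = 0.0460). The sum has no test and was not refitted with the block.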
